A study of Cuscuta campestris with 9 samples.

Results

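The pre-tRNAs of histidine and glutamine were examined in 9 libraries of full-length short RNA from the parasitic plant Cuscuta campestris (dodder). Members were all genes of the pre-tRNA category whose name ends in an anticodon label beginning with His or Gln, and the counts of every listed transcript form were summed per gene. This gave 28 of the 496 tRNA genes in the table. Histidine had 10 genes, of which 9 were labelled HisGTG and 1 HisATG, with 55 listed transcript forms. Glutamine had 18 genes, 10 labelled GlnCTG and 8 labelled GlnTTG, with 88 forms.

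All libraries came from the wild-type strain "Dotti". Shoot tips cut from plants grown on beets were induced with far-red light and the pressure of a stack of slides over 3% agar for 4 days, and the regions with haustoria, the invasive organs of the parasite, were taken without any host. Of the 3 RNA samples, each was divided into an untreated portion, a portion treated with decapping enzyme (Dcp) and a portion treated with the pyrophosphohydrolase RppH, so that each group held 3 libraries. The labels leave unsaid whether the RNA samples came from separate plants or inductions, so the spread behind each p-value is that of these libraries and may be technical. For the level of a gene in dissected tissue, few cells making a transcript and little transcript per cell cannot be told apart. The portions of an RNA sample come from the same cells, so this limit does not bear on comparisons between treatments.

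Transfer RNAs carry amino acids to the ribosome. RNA polymerase III makes them as precursors that begin with a 5′ triphosphate and end in a short trailer. RNase P cuts off the 5′ leader and leaves a 5′ monophosphate, RNase Z cuts near the mature 3′ end, and a CCA tail is added. Histidine tRNA is unusual among tRNAs in needing an extra G at its 5′ end, which its synthetase recognises. A tRNA with the GTG anticodon reads histidine codons, and tRNAs with CTG and TTG anticodons read glutamine codons. The ligation used here joined only 5′ monophosphate ends. By the reading in the labels' protocols, a gain after RppH without a gain after Dcp marks a probable triphosphate, and a gain after both marks a probable cap. Neither the precursor's mature boundaries nor its sequence is in the table, so values are given per gene and per interval.

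Library totals ran from 24974484 to 46034864, and the listed intervals of all classes held 630 to 34529 counts per library. One count was therefore worth 0.0217 to 0.04 TPM, which here is the count relative to the library total with no scaling by length. Histidine genes held 480 counts over all libraries and glutamine genes 763, so most genes were measured with few counts. No molecular identifiers are mentioned, and intervals on ratios and shares (95%, exact) cover counting error only. The sources used here do not give the handling of reads that match several gene copies, so values of near-identical copies are uncertain for each copy. Comparisons between genes are of numbers of full-length reads of similar length.

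Histidine pre-tRNAs were almost absent from untreated RNA and present in every RppH library, whereas glutamine pre-tRNAs were present in every library. By mean RppH level, glutamine was the 11th and histidine the 13th of the 22 isotype labels. Summed over the histidine genes, untreated libraries 1 to 3 held 4, 0 and 0 counts, the Dcp libraries 14, 18 and 1, and the RppH libraries 118, 99 and 226. Summed over the glutamine genes, untreated libraries held 33, 25 and 25 counts, the Dcp libraries 42, 51 and 46, and the RppH libraries 220, 93 and 228. For both amino acids all 3 RppH libraries lay above the other 6 libraries. Histidine totals in the Dcp group overlapped the untreated group, because Dcp library 3 held a single count. Glutamine totals in the Dcp group all lay above the untreated group.

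In TPM, histidine pre-tRNAs averaged 0.0323 ± 0.0559 in untreated RNA, 0.340 ± 0.270 with Dcp and 5.01 ± 1.54 with RppH (SD, n = 3). Glutamine pre-tRNAs averaged 0.763 ± 0.204, 1.49 ± 0.211 and 6.19 ± 2.22 TPM (SD, n = 3). With libraries pooled, the RppH level was 147 times the untreated level for histidine (57.0 to 541) and 8.64 times for glutamine (6.85 to 11.0). The same ratio was 13.0 for all other pre-tRNAs together, a value weighted to alanine. Alanine held 65.3% of untreated pre-tRNA counts and had a ratio of 5.25. Among the 20 isotype labels of the table that had untreated counts, these ratios ran from 5.25 to 456 with a median of 28.6, and histidine was the 2nd highest and glutamine the 19th. The histidine rank rests on 4 untreated counts, all in library 1. Its interval overlaps those of leucine (156 to 2214) and proline (26.2 to 381), which had 3 untreated counts each. As a share of the counts of both amino acids, histidine made up 4.60% in untreated RNA, 19.2% after Dcp and 45.0% after RppH. These totals are descriptions of chosen genes and were not tested.

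Totals also differed between the anticodons of an amino acid, but few genes made up much of them. The HisATG gene had no untreated count and averaged 0.296 ± 0.276 TPM with Dcp and 3.03 ± 0.675 TPM with RppH (SD, n = 3). It alone held 265 of the 443 histidine counts of the RppH group (59.8%) and 28 of the 33 of the Dcp group (84.8%). The 9 HisGTG genes averaged 0.0441 ± 0.0497 TPM with Dcp and 1.98 ± 1.07 TPM with RppH (SD, n = 3). Their pooled Dcp level was 1.49 times the untreated one (0.321 to 7.51), which 5 Dcp counts against 4 untreated counts cannot tell from equality. The GlnTTG genes were the highest in untreated RNA, at 0.589 ± 0.148 TPM (SD, n = 3), and their pooled RppH level was 6.38 times that (4.86 to 8.49). Of their 64 untreated counts, scaffold545.tRNA1-GlnTTG held 31 and scaffold55.tRNA2-GlnTTG 22, so this total does not describe GlnTTG genes in general. The GlnCTG genes stood at 0.174 ± 0.101 TPM in untreated RNA (SD, n = 3) and 16.3 times higher after RppH (10.2 to 27.5).

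**Figure D1:**
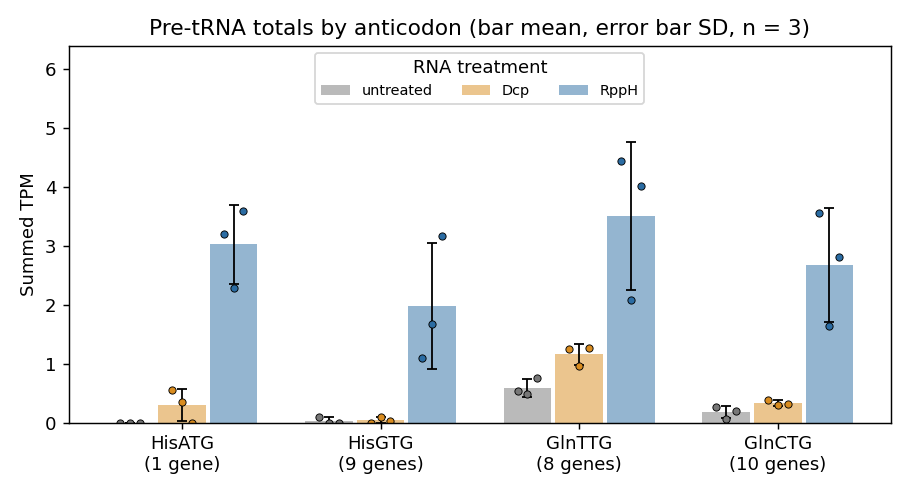
Summed TPM (y axis) of the genes of each anticodon in untreated, Dcp and RppH libraries; bars are means, error bars SD over 3 libraries and points single libraries. HisATG is at 0 in all untreated libraries and averages 3.03 TPM after RppH, while GlnTTG already averages 0.589 TPM in untreated RNA.

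More genes were seen after RppH. Untreated libraries held counts for 2 of 10 histidine and 8 of 18 glutamine genes, Dcp libraries for 4 and 12, and RppH libraries for 10 and 17. The glutamine gene not seen after RppH was scaffold364.tRNA1-GlnCTG, which had 4 counts in Dcp library 2, 2 in Dcp library 3 and none elsewhere. Counts this low do not show that a gene was silent in a group.

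Gene by gene, the RppH and untreated groups were compared with edgeR's quasi-likelihood test on all loci of the table with at least 10 counts over the 9 libraries, which 7 histidine and 11 glutamine genes reached. All 7 tested histidine genes and 8 of the 11 tested glutamine genes were higher after RppH (edgeR, Benjamini-Hochberg adjusted p under 0.05), and none was lower. The background was high, since 91.2% of the 354 tested loci were called higher in this comparison. Without the RppH libraries 6 of the 7 tested histidine genes and 7 of the 11 tested glutamine genes had under 10 counts, 6 of the called genes for each amino acid among them. They passed the filter through the group in which they were high, so neither call count is support for a difference. The same limit holds for the p-values given below for these genes, against untreated RNA or against Dcp. They are all tested HisGTG genes, and all tested glutamine genes but scaffold55.tRNA2, scaffold545.tRNA1, scaffold22b.tRNA7 and scaffold36.tRNA4. The count of calls was 4 for histidine without RNA sample 1 or RNA sample 3, and for glutamine 3 without RNA sample 1, 5 without RNA sample 3 and 5 without RppH library 1. The share of all tested loci called was 55.4% without RNA sample 1, 59.6% without RNA sample 3 and 87.3% without RppH library 1. With every listed locus tested, 7 of 10 histidine and 7 of 18 glutamine genes were called, beside 48.5% of all loci. Libraries of the same number share an RNA sample, and with that sample as a block 4 histidine and 3 glutamine genes were called, beside 57.3% of loci. Changes are relative to the library total. Scaling on the tested loci instead moved the RppH libraries against the untreated ones by 3.16 on the log2 scale with TMM and by 3.55 with median of ratios. Fitted log2 changes were then lower by a median of 3.09 and 3.43 in the 110 loci with an untreated count, and by 1.28 and 1.32 in the 244 loci without one, whose fitted changes depend on the prior count. HisATG, 1 of the 7 histidine genes, and 0 glutamine genes were called higher under either scaling, beside 18.6% of loci with TMM and 12.1% with median of ratios.

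The most abundant histidine pre-tRNA was scaffold240.tRNA1-HisATG (scaffold 240, positions 239517 to 239614, minus strand). It had no count in any untreated library, 14, 14 and 0 counts with Dcp, and 88, 57 and 120 with RppH. Its RppH libraries were all far above both other groups, and Dcp library 3 was at 0 like the untreated ones. It was at least 117-fold higher after RppH than in untreated RNA, taking a floor of 3 counts over the untreated group (edgeR, adjusted p = 9.57e-08, with the block 6.24e-07). Here and below, folds given as at least a value use such a floor and leave out counting error in the higher group. They are not confidence limits. The HisATG call was kept with TMM (edgeR, adjusted p = 0.000102) and with median-of-ratios scaling (adjusted p = 0.000512).

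The remaining histidine genes carry the GTG label, and 4 of them lie on scaffold 10 in 2 close pairs. In the first pair, tRNA2-HisGTG (positions 1754369 to 1754454) and tRNA3-HisGTG (1754517 to 1754610) were on the plus strand with 62 nt between their listed intervals. In the second pair, tRNA4-HisGTG (1777945 to 1778029) and tRNA5-HisGTG (1778095 to 1778183) had the same orientation with 65 nt between them. The commonest 5′ ends were 149 nt apart in the first pair and 150 nt apart in the second, and the pairs were separated by 23.4 kb, measured between the 5′ ends of tRNA3 and tRNA4. Such spacing was not special to histidine: 25 neighbouring pairs of listed tRNA genes lay under 1000 nt apart in the whole table, 18 of them with a gap under 100 nt, the median gap was 62 nt, and 12 pairs shared an anticodon.

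In both pairs the downstream gene was read more often. The upstream scaffold10.tRNA2-HisGTG had 4, 1 and 9 counts in the RppH libraries, and its downstream partner scaffold10.tRNA3-HisGTG had 10, 16 and 13. The upstream scaffold10.tRNA4-HisGTG had 1, 1 and 2 counts, and its partner scaffold10.tRNA5-HisGTG had 5, 12 and 46. The downstream gene was the higher one in each of the 3 RppH libraries in both pairs. Summed over the RppH libraries the downstream to upstream ratio was 2.79 (1.48 to 5.55) in the first pair and 15.8 (5.86 to 59.6) in the second. Whether the placing of reads that match both copies affects these ratios was not tested.

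**Figure D2:**
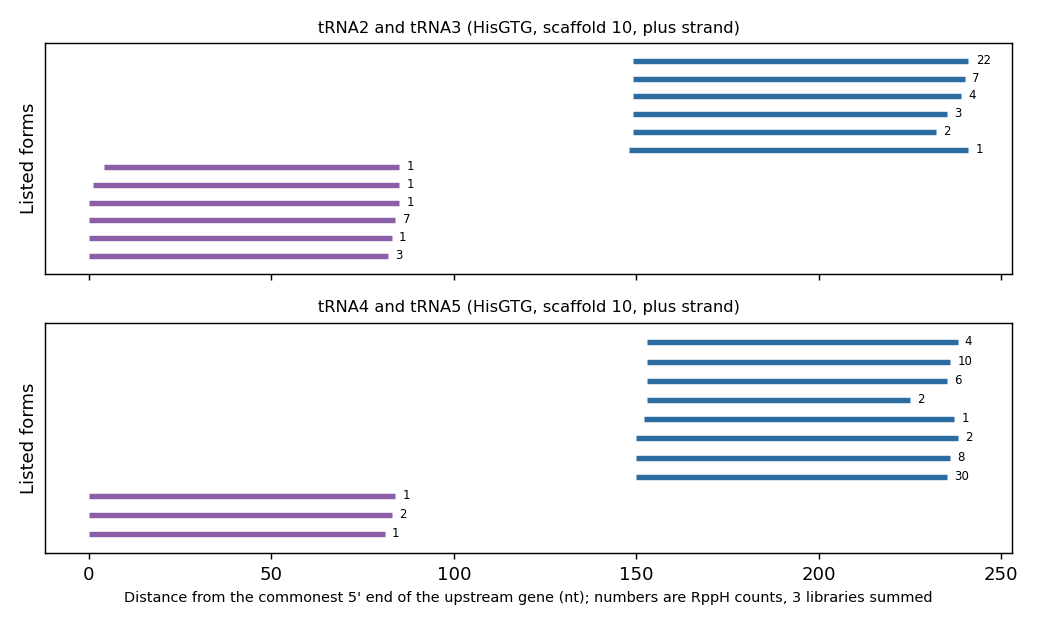
Listed transcript forms of the HisGTG pairs of scaffold 10, drawn by distance in nt from the commonest 5′ end of the upstream gene (x axis), 1 line per form, with its RppH counts summed over 3 libraries. The downstream genes start about 150 nt further on and carry 39 and 63 RppH counts against 14 and 4 upstream.

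Outside RppH these 4 genes were nearly empty. Untreated library 1 held 2 counts each of tRNA3 and tRNA5, and the other untreated libraries held none. After Dcp there was 1 count of tRNA2 in library 3 and 2 counts of tRNA5 in library 2. For scaffold10.tRNA5-HisGTG the pooled RppH to untreated ratio was 41.8 (11.1 to 352; edgeR, adjusted p = 0.000473, with the block 0.0237). For scaffold10.tRNA3-HisGTG it was 25.9 (6.70 to 221; adjusted p = 0.00203, with the block 0.0231). The upstream scaffold10.tRNA2-HisGTG was at least 6.19-fold higher after RppH (edgeR, adjusted p = 0.00875), a call that was lost with the block (adjusted p = 0.110), when RNA sample 1 (0.0708) or 3 (0.131) was left out, and when RppH library 3 was (0.0592). scaffold10.tRNA4-HisGTG had too few counts to be tested. The tested genes of these pairs reached 10 counts only through their RppH libraries, so these p-values are no support for a difference.

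The other 5 HisGTG genes had no untreated count. scaffold62.tRNA1-HisGTG had 0, 2 and 0 counts after Dcp and 8, 6 and 17 after RppH, with no overlap between the groups, and was at least 13.7-fold higher after RppH than in untreated RNA (edgeR, adjusted p = 0.000612, with the block 0.00917). scaffold39.tRNA2-HisGTG had 0, 1 and 11 RppH counts and scaffold11.tRNA2-HisGTG had 2, 4 and 4, with none after Dcp. These were at least 5.30-fold and 4.42-fold higher (edgeR, adjusted p = 0.0131 and 0.0144), and both calls were lost with the block (0.202 and 0.137). The scaffold39.tRNA2 call was also lost without RppH library 3 (0.343) and without RNA sample 1 (0.0659) or 3 (0.465), and the scaffold11.tRNA2 call without any one of the RNA samples (0.0739, 0.0647 and 0.0978). scaffold24.tRNA9-HisGTG had 4 counts, all in RppH library 3, and scaffold76.tRNA3-HisGTG had 1 count, in RppH library 2.

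**Figure D3:**
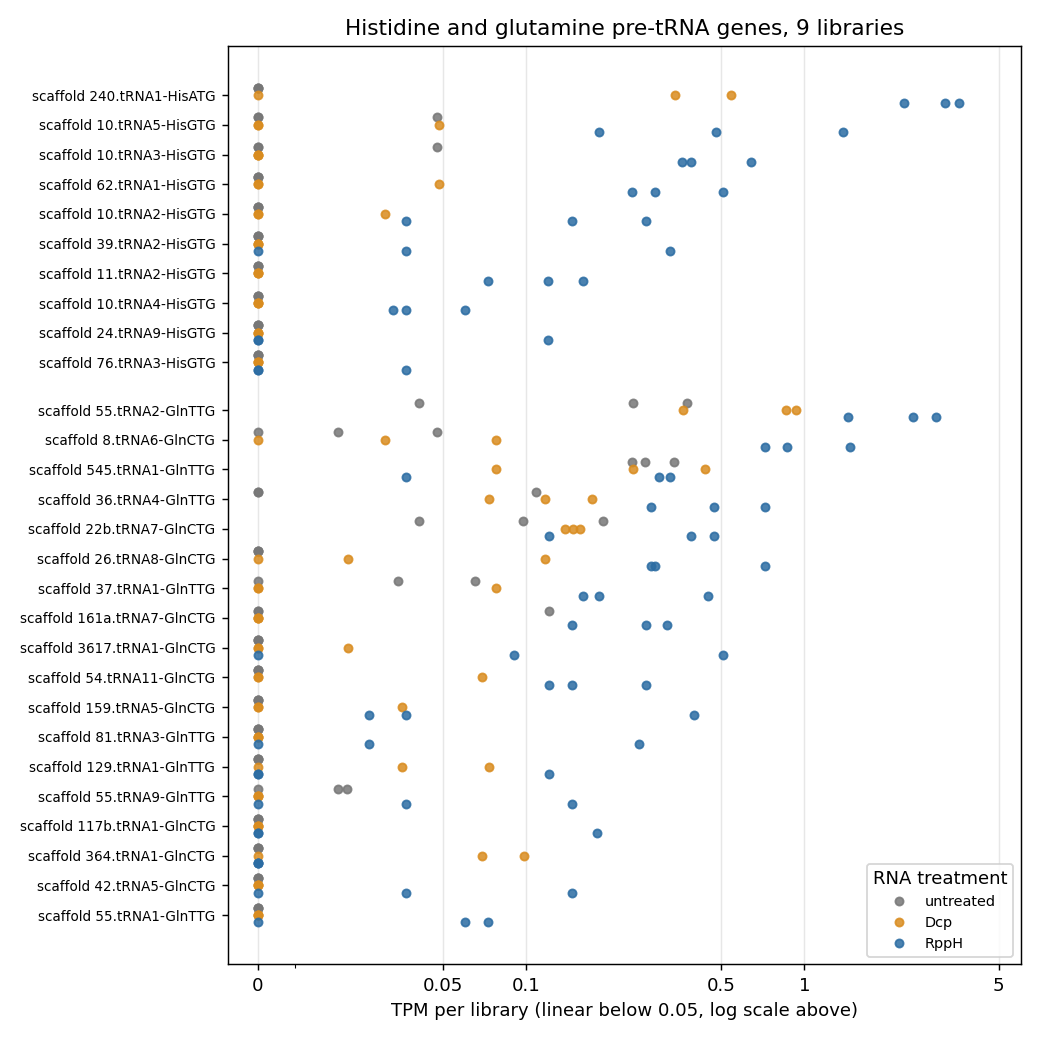
TPM (x axis, linear below 0.05 and logarithmic above) of every histidine and glutamine gene in each of the 9 libraries, 1 point per library coloured by treatment; points at 0 overlie each other. The RppH points of HisATG lie apart from the rest, and the 3 treatments of scaffold545.tRNA1-GlnTTG overlap.

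Glutamine genes differed in how far they were seen outside RppH, and 8 of 18 had untreated counts. Of genes without untreated counts, scaffold364.tRNA1-GlnCTG had Dcp counts only, and scaffold129.tRNA1-GlnTTG had 4 Dcp and 3 RppH counts. The 3 genes scaffold55.tRNA2-GlnTTG, scaffold545.tRNA1-GlnTTG and scaffold22b.tRNA7-GlnCTG, singled out after their values were seen, were the only glutamine genes with counts in all 9 libraries. They held 64 of the 83 untreated glutamine counts (77.1%), 105 of the 139 Dcp counts (75.5%) and 249 of the 541 RppH counts (46.0%). These shares follow in part from the choice and are a description.

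The most abundant glutamine pre-tRNA, scaffold55.tRNA2-GlnTTG (scaffold 55, positions 1173330 to 1173415, plus strand), had 10, 2 and 10 counts without enzyme, 24, 15 and 25 with Dcp, and 82, 36 and 82 with RppH. In counts the 3 groups did not overlap and stood in the order untreated, Dcp, RppH, while in TPM Dcp library 2 (0.367) lay just below untreated library 3 (0.378). Its levels were 0.221 ± 0.168, 0.721 ± 0.309 and 2.30 ± 0.785 TPM (SD, n = 3). It was higher after RppH than in untreated RNA by 3.40 on the log2 scale (SE 0.97; edgeR, adjusted p = 0.00129), and this call was lost without RNA sample 1 (3.26, adjusted p = 0.0601). Neither the step from untreated RNA to Dcp (log2 difference 1.73, SE 0.94, adjusted p = 0.222) nor the step from Dcp to RppH (1.68, SE 0.89, adjusted p = 0.0889) passed the edgeR test.

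scaffold545.tRNA1-GlnTTG (positions 42020 to 42113, minus strand) had the lowest RppH to untreated change of the tested histidine and glutamine genes. It had 11, 11 and 9 counts without enzyme, 2, 18 and 7 with Dcp, and 9, 1 and 10 with RppH. All 3 groups overlapped, with means of 0.282 ± 0.0526, 0.253 ± 0.182 and 0.223 ± 0.159 TPM (SD, n = 3). The RppH to untreated ratio was 0.856 (0.462 to 1.55), which is -0.31 on the log2 scale with an SE of 1.02 (edgeR, adjusted p = 0.768). This does not show that the level was the same, since the interval spans a change in either direction. Relative to the other tested loci it was lower with RppH than without enzyme, by TMM scaling (log2 -3.51; edgeR, adjusted p = 0.00112) and by median-of-ratios scaling (-3.96, adjusted p = 0.000213), where 2.26% and 2.54% of loci were called lower.

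scaffold22b.tRNA7-GlnCTG (scaffold 22b, positions 1454394 to 1454478, minus strand) had 4, 2 and 5 counts without enzyme, 4, 6 and 4 with Dcp, and 13, 3 and 13 with RppH. RppH library 2 lay within the range of the untreated libraries in counts. The RppH to untreated ratio was 3.50 (1.70 to 7.76), and the log2 difference of 1.62 (SE 1.08) did not pass the edgeR test (adjusted p = 0.142). It had the opposite sign with TMM (-1.52) and median-of-ratios scaling (-1.86).

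Among the glutamine genes scarce in untreated RNA, scaffold8.tRNA6-GlnCTG (scaffold 8, positions 2707452 to 2707547, plus strand) was the most abundant. It had 2, 1 and 0 counts without enzyme, 2, 0 and 1 with Dcp, and 40, 18 and 29 with RppH. The RppH libraries were far above the other libraries, among which Dcp and untreated overlapped. The RppH to untreated ratio was 38.5 (12.7 to 190; edgeR, adjusted p = 0.000173, with the block 0.00472).

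scaffold26.tRNA8-GlnCTG had no untreated count, 3, 1 and 0 after Dcp and 8, 7 and 24 after RppH, and was at least 17.2-fold higher after RppH than in untreated RNA (edgeR, adjusted p = 0.000229, with the block 0.00472). scaffold36.tRNA4-GlnTTG had 0, 5 and 0 counts without enzyme, 3, 3 and 5 with Dcp, and 13, 7 and 24 with RppH, with a ratio of 11.7 (4.64 to 37.7; edgeR, adjusted p = 0.00531). Its call was lost with the block (adjusted p = 0.0515) and when RNA sample 1 (0.0824) or 3 (0.0603) was left out, and its log2 change had the opposite sign with median-of-ratios scaling (-0.35). scaffold37.tRNA1-GlnTTG had 0, 3 and 1 untreated counts, 2, 0 and 0 Dcp counts and 5, 4 and 15 RppH counts, with a ratio of 7.96 (2.73 to 31.6; edgeR, adjusted p = 0.0400, with the block 0.173). That call was lost in 6 of the leave-out fits, without RNA sample 1 or 3, untreated library 1 or 3, or RppH library 1 or 3 (adjusted p from 0.0652 to 0.232), and its sign turned with TMM (-0.35) and median-of-ratios scaling (-0.88).

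Several GlnCTG genes depended on 1 library. scaffold3617.tRNA1-GlnCTG had 14, 0 and 3 RppH counts and scaffold159.tRNA5-GlnCTG had 11, 1 and 1, with no untreated count, 1 Dcp count each and most reads in RppH library 1. They were at least 7.52-fold and 5.75-fold higher than untreated RNA (edgeR, adjusted p = 0.00475 and 0.00891), and without RppH library 1 neither passed (0.0572 and 0.0852), nor without RNA sample 1 (0.190 and 0.225), nor with the block (0.0854 and 0.129). scaffold54.tRNA11-GlnCTG, with 4, 3 and 9 RppH counts spread over all libraries, 0, 0 and 2 after Dcp and none untreated, was at least 7.07-fold higher (edgeR, adjusted p = 0.00551), a call lost with the block (0.0635) and without RNA sample 1 (0.0550) or 3 (0.0792). scaffold161a.tRNA7-GlnCTG had 5, 0 and 0 untreated counts, none after Dcp and 4, 8 and 9 after RppH. It did not pass (ratio 5.57, edgeR, adjusted p = 0.0785), but did without untreated library 1 (0.0131) and without RNA sample 1 (0.0345), and its log2 change had the opposite sign with TMM (-0.51) and median-of-ratios scaling (-0.77). The other 7 glutamine genes had 4 to 8 counts each and were not tested.

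With Dcp, which acts on caps, 1 histidine gene and no glutamine gene was called higher than in untreated RNA. HisATG was at least 11.1-fold higher after Dcp (edgeR, adjusted p = 0.00229, with the block 0.00984), on 14 counts in library 1 and 14 in library 2. Dcp library 3 had no count of it, and without RNA sample 1 (adjusted p = 0.434) or RNA sample 2 (0.0827) the call was lost. No call was made with limma on log2(TPM + 0.1) or log2(TPM + 1) either (adjusted p = 0.204 and 0.965). The background of this comparison was 13.6% of loci called higher (8.47% with the block, in which the same counts of 1 and 0 were found), and 12 of 249 tested genes of the other isotypes were called. Of the 11 tested glutamine genes 0 were called by edgeR or DESeq2, and 1 had an unadjusted p under 0.05. Pooled over all genes, the Dcp to untreated ratio was 2.00 (1.51 to 2.65) for glutamine and 9.83 (3.50 to 38.2) for histidine, against 1.89 for the other pre-tRNAs together. That last value is weighted to alanine, which held 65.3% of untreated pre-tRNA counts and had a ratio of 1.47. Over the isotype labels with untreated counts the median ratio was 3.26, with histidine the 2nd highest and glutamine the 14th. This histidine rank too rests on 4 untreated counts. Both enzyme groups were compared with the same untreated libraries, so the comparisons are not independent.

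RppH was also set directly against Dcp. Here 6 of 7 tested histidine and 5 of 11 tested glutamine genes were higher after RppH (edgeR, Benjamini-Hochberg adjusted p under 0.05), beside 61.0% of all tested loci and 166 of the 249 tested genes of other isotypes. With the RNA sample as a block 3 histidine genes and 1 glutamine gene were called, beside 18.1% of loci, and with either scaling on the tested loci 0 of both were (2.82% of loci with TMM, 1.41% with median of ratios). HisATG was 10.5 times higher after RppH than after Dcp (7.12 to 16.2; log2 3.34, SE 0.97; edgeR, adjusted p = 0.00490, with the block 0.0208). scaffold10.tRNA5-HisGTG was 35.1 times higher (adjusted p = 0.00226, with the block 0.0473), and scaffold10.tRNA3-HisGTG, with no Dcp count, at least 14.5-fold higher (adjusted p = 0.00103, with the block 0.0163). scaffold8.tRNA6-GlnCTG was 32.3 times higher (edgeR, adjusted p = 0.00131, with the block 0.0228). Apart from HisATG these genes had at most 3 Dcp counts. None of the 4 passed without RNA sample 1 (adjusted p = 0.0910, 0.0703, 0.0699 and 0.0699 in the order given), and scaffold10.tRNA5 did not without RNA sample 3 (0.112). The count of histidine calls was 0 without RNA sample 1, 2 without RNA sample 3, and 3 without Dcp library 3 or RppH library 3. The count of glutamine calls was 0, 3 and 1 without RNA samples 1, 2 and 3, and 2 without any one of Dcp libraries 2 and 3 and RppH libraries 1 and 3. The share of all tested loci called fell too, to 0.0%, 35.0% and 16.1% without RNA samples 1, 2 and 3. It was 31.6% and 27.1% without Dcp libraries 2 and 3, and 39.5% and 26.6% without RppH libraries 1 and 3. As above, 6 of the tested histidine and 7 of the tested glutamine genes reached 10 counts only with their RppH libraries, 5 called genes for each amino acid among them, and these call counts are no support for a difference either. With every listed locus tested, 4 of 10 histidine and 3 of 18 glutamine genes were called, beside 26.2% of loci. Pooled over the genes, the RppH to Dcp ratio was 14.9 for histidine and 4.33 for glutamine, against 6.88 for the other pre-tRNAs together. That last value is weighted to alanine, which held 50.1% of Dcp pre-tRNA counts and had a ratio of 3.58. Over the isotype labels with Dcp counts the median was 9.80, with histidine the 5th highest and glutamine the 19th. The histidine value rests on 33 Dcp counts, 28 of them of HisATG.

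Most reads of a gene shared a 5′ end, while 3′ ends were more varied. In the RppH libraries, 91.7% ± 2.86 of histidine counts and 92.3% ± 2.87 of glutamine counts began at the commonest 5′ end of their gene (SD, n = 3). The histidine share was 97.4% for HisATG and 82.0% for HisGTG over the RppH libraries together, and in the Dcp libraries the GlnCTG share was 77.4%. Over all libraries scaffold37.tRNA1-GlnTTG had 40.0% of its counts at its commonest 5′ end and scaffold10.tRNA5-HisGTG 65.7%. A single 5′ end was listed for 4 of 10 histidine and 9 of 18 glutamine genes, whereas a single 3′ end was listed for 1 and 3 genes, and a gene had up to 11 (histidine) or 12 (glutamine) different 3′ ends. The untreated reads started where the RppH reads did: 80 of 83 untreated glutamine counts (96.4%, 89.8 to 99.2) and all 4 untreated histidine counts began at the commonest RppH 5′ end of their gene.

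Further 5′ ends often lay 3 nt from the commonest one in glutamine genes, and less often in histidine genes. Of the 22 further 5′ ends, in 15 genes, 9 lay at that distance and held 51 of the 92 counts concerned (55.4%). By amino acid these were 7 of 13 further ends for glutamine (53.8%) and 2 of 9 for histidine (22.2%). They held 24 of 52 such counts for glutamine and 27 of 40 for histidine. In the other pre-tRNAs 59 of 296 further ends (19.9%) lay 3 nt away, with 31.3% of the counts. scaffold10.tRNA5-HisGTG began at position 1778095 in 44 counts (2 untreated, 2 Dcp and 40 RppH) and at 1778098 in 22 counts, all of them RppH. scaffold26.tRNA8-GlnCTG began at 1979596 in 31 counts and at 1979593 in 12. These 2 genes hold much of the total, and no test of the difference from other isotypes was made.

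Read lengths varied by anticodon and within HisATG. The median length of RppH reads was 88 nt for HisATG, 86 nt for HisGTG, 85 nt for GlnCTG and 83 nt for GlnTTG, and no difference between them was tested. HisATG reads came in a short class of mainly 88 nt (124 counts) and a long class of 94 or 95 nt (110 counts), which shared their 5′ end apart from a few reads and so differed at the 3′ end. Reads of at least 93 nt were 8 of 14 and 9 of 14 in Dcp libraries 1 and 2, and 34.1%, 49.1% and 35.8% in RppH libraries 1 to 3. Both Dcp libraries with counts lay above all RppH libraries, at 60.7% (40.6 to 78.5) pooled against 38.1% (32.2 to 44.3), but the counting intervals overlap and Dcp library 3 gave no value. The cut at 93 nt was set after the lengths were seen.

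**Figure D4:**
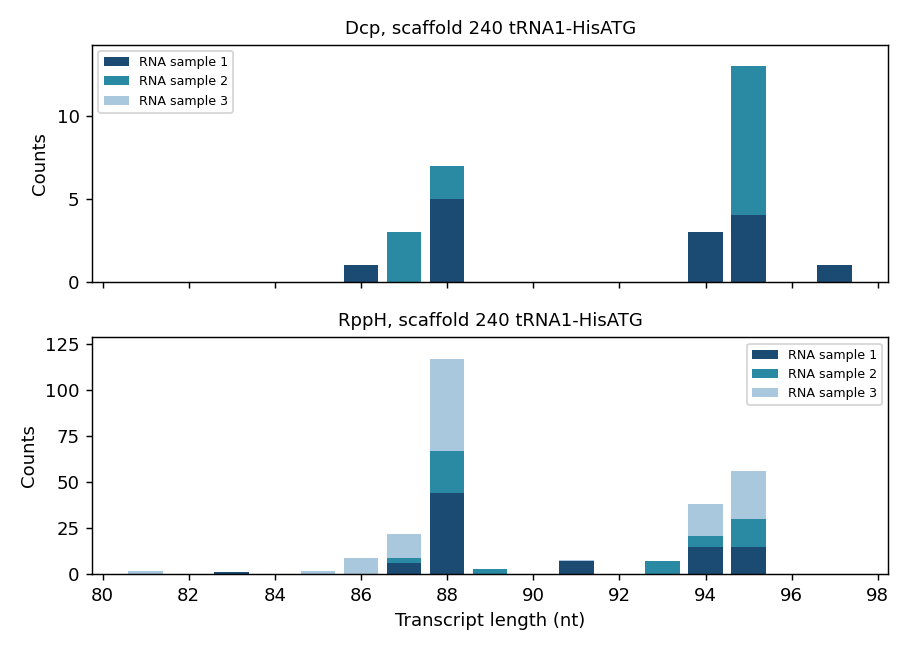
Counts (y axis) of HisATG reads by transcript length in nt (x axis) after Dcp (top) and RppH (bottom), stacked by RNA sample; untreated libraries held none. The RppH reads peak at 88 nt and again at 94 and 95 nt, and the Dcp reads come from RNA samples 1 and 2 only.

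Single transcript forms of the 3 glutamine genes present in all libraries showed different patterns. The 83-nt form of scaffold545.tRNA1-GlnTTG had 11, 4 and 9 counts without enzyme, 1, 7 and 6 with Dcp, and 6, 1 and 2 with RppH, with a log2 RppH to untreated difference of -1.08 that did not pass the edgeR test on single forms (adjusted p = 0.366). Its 82-nt form had 11 counts, all in Dcp library 2, and its 88-nt form had 7, all in untreated library 2. The 83-nt form alone was seen in all 9 libraries. The 79-nt form made up most of scaffold22b.tRNA7-GlnCTG, with 4, 0 and 5 counts without enzyme, 4, 6 and 4 with Dcp and 10, 3 and 10 with RppH. For scaffold55.tRNA2-GlnTTG the 83-nt form, which had no untreated count, passed the edgeR test after Dcp (adjusted p = 0.0372), and did not with the block (0.282). Over all single forms, 8 of histidine and 16 of glutamine had at least 10 counts and were tested. For RppH against untreated RNA 8 and 12 of them were called higher, beside 86.0% of all forms tested (6 and 5 with the block, beside 42.3%). For Dcp against untreated RNA 1 and 1 were, beside 9.5% (0 and 0 with the block, beside 5.88%), and for RppH against Dcp 6 and 4, beside 51.8% (1 and 0 with the block, beside 9.95%). Many of these forms reached 10 counts only through their RppH libraries, such as the 93-nt form of scaffold10.tRNA3-HisGTG, with all 22 counts there. The counts of forms called higher after RppH are therefore no support for a difference.

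**Figure D5:**
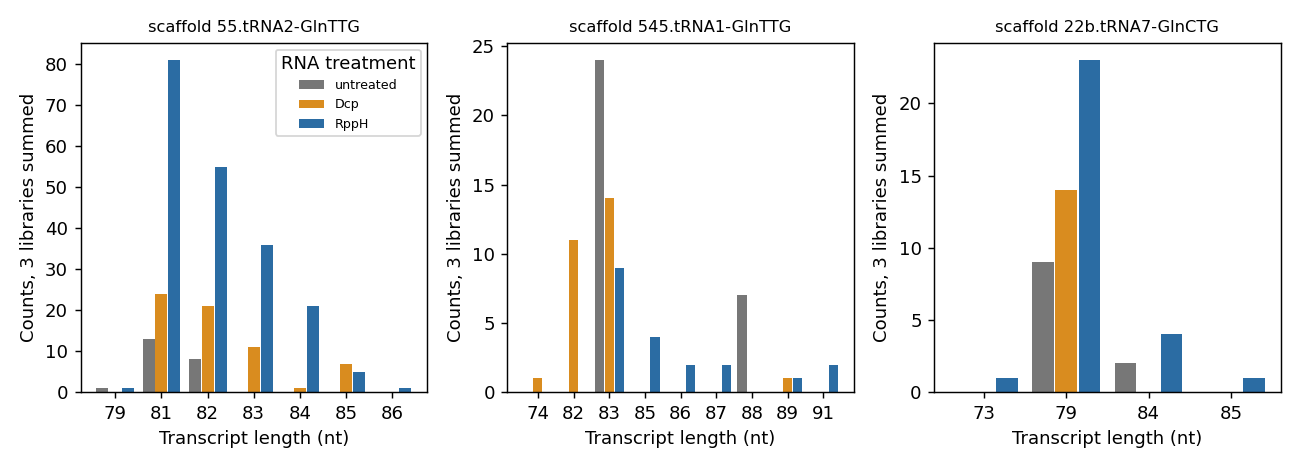
Counts summed over 3 libraries (y axis) by transcript length in nt (x axis) for the 3 glutamine genes seen in every library, coloured by treatment. The 83-nt form of scaffold545.tRNA1-GlnTTG is highest in untreated RNA, while the 81-nt to 84-nt forms of scaffold55.tRNA2-GlnTTG are highest after RppH.

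Many forms were seen once. Of the 143 histidine and glutamine forms, 89 (62.2%) had counts in only 1 library, and 30 of those had at least 3 counts, up to 11. The share was 63.4% in the other pre-tRNAs (1377 of 2172 forms). Only 2 forms, both of glutamine genes, were seen in all 9 libraries. Whether several reads of 1 form in a single library came from 1 molecule was not tested.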

How the data were processed

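Full-length short RNAs of 9 libraries were analysed from a table of the whole series. It holds raw counts per genomic interval and library, deposited by the authors without normalization, and the authors' TPM values, per the file header. TPM was the count over 1 constant in each library, so it carries no scaling by length, and that constant gave the library total. Tools named in the submitters' processing notes, all without a version, were bedtools, SAMtools, Bowtie2 and cutadapt. The placing of reads with several matches is not stated there. Coordinates are on the authors' scaffolds, counted from 1. No sequence is printed, since none was in the files used here.

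Counts were summed per tRNA gene. Of 716 loci, 354 had 10 or more counts over 9 libraries and were fitted with edgeR 4.0.16 (quasi-likelihood test, R 4.3.3), with the library totals as offsets, no further factor and no block. Two-sided p-values were adjusted by Benjamini-Hochberg over all tested loci, with a threshold of 0.05. An SE given with a log2 value is that value's size divided by the square root of F. Where a group had 0 counts the fold was bounded with a floor of 3 counts over that group, and ratios of pooled counts carry exact 95% intervals. The bound leaves out counting error in the higher group and is not a confidence limit. Alternatives used DESeq2 1.42.0, limma 3.58.1, other scalings and filters, single intervals, an RNA sample block and left-out libraries. Figures and tables were made with Python 3.11.15, pandas 2.3.3, SciPy 1.17.1 and matplotlib 3.10.9.

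Per the labels, equal numbers mark libraries of 1 RNA sample, and so the libraries are paired. Correlations of their deviations from the group means over tested loci ran from -0.27 to 0.20. The share of reads at a gene's commonest 5′ end had been planned with an exact permutation test, whose smallest p with 3 libraries against 3 is 0.1. It is given without a test, because it is a score over chosen genes. Mature tRNA ends are not in the table, so whole transcript lengths are given in place of trailer lengths. Named genes were the HisGTG neighbours on scaffold 10, the 8 histidine and 12 glutamine genes with most counts, any called after Dcp and the one with the lowest RppH to untreated change. Members, lists and tests were chosen with earlier results of these data known.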

Additional observations from a re-analysis of the deposited data

How the results depend on the processing

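Alternatives were run for every count of calls given above. RppH against untreated gave 7 of 7 tested histidine genes, 4 with the replicate block (RNA sample), 4 with DESeq2 and 1 with TMM or median-of-ratios scaling. Without single libraries or RNA samples it gave 4 to 7. With at least 30 counts 4 of 4 tested histidine genes were called, and on single intervals 4 of 4. Glutamine gave 8 of 11, and 3 with the block, 5 with DESeq2, 5 of 7 with at least 30 counts, 0 with either scaling and 3 to 8 on leaving out. Dcp against untreated gave 1 histidine gene, 0 with limma at either pseudocount (0.1 or 1 TPM) and 0 to 1 on leaving out; glutamine gave 0, and 1 on single intervals. RppH against Dcp gave 6 histidine genes, 3 with the block, 3 with DESeq2, 0 with either scaling and 0 to 6 on leaving out. Glutamine gave 5 of 11, 1 with the block, 1 with DESeq2, 0 with either scaling and 0 to 5 on leaving out. It gave 3 of 18 without a filter, 3 of 7 with at least 30 counts and 3 of 8 on single intervals. Read length over the histidine genes was 87.7 nt as the mean of the medians of the RppH libraries and 89.0 nt as that of their means. The share of all tested loci called moved as well. For RppH against untreated it was 91.2% as reported, 57.3% with the block, 63.6% with DESeq2, 94.1% with at least 30 counts, 18.6% with TMM, 12.1% with median of ratios and 55.4% to 91.5% on leaving out. For Dcp against untreated it was 13.6%, 7.34% and 2.54% with limma at the smaller and larger pseudocount, 9.5% on single intervals and 1.69% to 16.4% on leaving out. For RppH against Dcp it was 61.0%, 18.1% with the block, 25.7% with DESeq2, 26.2% without a filter, 69.7% with at least 30 counts, 51.8% on single intervals, 2.82% and 1.41% with the scalings and 0.0% to 63.3% on leaving out. Single log2 changes turned sign under scaling on the tested loci, first TMM and then median of ratios. For RppH against untreated they were -0.51 and -0.77 in scaffold161a.tRNA7, -1.52 and -1.86 in scaffold22b.tRNA7 and -0.35 and -0.88 in scaffold37.tRNA1, and -0.35 with median of ratios only in scaffold36.tRNA4. For RppH against Dcp they were -1.14 and -1.34 in scaffold22b.tRNA7, -0.29 and -0.51 in scaffold36.tRNA4 and -0.62 and -0.85 in scaffold55.tRNA2, and for Dcp against untreated -0.38 and -0.53 in scaffold22b.tRNA7. Without single libraries or RNA samples, scaffold545.tRNA1 ran from -0.70 to 0.16 (RppH against untreated), -0.89 to 0.29 (Dcp against untreated) and -0.96 to 0.94 (RppH against Dcp). The cause of these moves was not tested, except that fewer loci or libraries enter the filtered and left-out fits. Over all single-gene values and alternatives, 581 kept direction and side of the threshold, 163 lost the call, 18 gained one and 24 turned sign. Depth limits all of this: 10 of the 28 genes had under 10 counts.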
